A study of Mus musculus with 20 samples.

Results

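The data described here are RNA-seq counts of 2 macrophage populations sorted from the cranial dura mater of the same 5 control mice, 1 carrying the reporter tdTomato (tdT+) and 1 without it (tdT-). The cells were dural CNS-associated macrophages (dCAMs), gated on intermediate CD45, on CD11b and on intermediate to high CD206. All mice were Ccr2creERT2/+ R26tdT/tdT, so that every animal had 1 Ccr2 allele with the Cre recombinase inserted and a tdTomato reporter that Cre switches on. They were first dosed with BLZ945 (200 mg/kg, 7 days), an inhibitor of the receptor CSF1R that depletes macrophages. Tamoxifen, which activates the Cre, was injected in daily doses of 2 mg when BLZ945 ended and again 2 and 4 days afterwards. At 8 weeks after the last BLZ945 dose, control (CTL) mice were injected with PBS, and the dura was taken 12 h later. These 10 libraries, 5 tdT+ and 5 tdT-, belong to a series of 20 libraries, in which 5 other mice received LPS at 2.5 mg/kg. No CTL mouse was free of BLZ945, the ages of the mice are not given in the labels used here, and the mice are named by number as 174, 175, 177, 178 and 179. The labels mark mice 174, 175 and 179 with F and mice 177 and 178 with M. Both libraries with 1 number came from 1 animal. The comparison was described over the 8302 genes with at least 10 counts in all 5 libraries of at least one population, out of 14405 genes tested and 33243 in the table.

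Macrophages of the dura mater are replenished in part by blood monocytes, which carry the chemokine receptor CCR2 on leaving the marrow and lose it as they settle. In the Ccr2creERT2 line tamoxifen marks cells with an active Ccr2 gene at the time of dosing, and the mark passes to their progeny whatever they express later. A tdT+ dCAM is thus a cell, or the progeny of a cell, that had active Ccr2 during the tamoxifen days. A tdT- dCAM is any cell of the gate without the mark, which covers cells that persisted, cells that arrived after tamoxifen and cells in which the Cre did not act, and these cannot be told apart here. The sequence of tdTomato is not a row of the count table, and the nearest check of the sort is Gt(ROSA)26Sor, the gene of the locus into which the reporter is inserted. It was at 18.5, 54.3, 49.3, 23.9 and 28.1 CPM (counts per 1000000 after TMM scaling for library composition) in the tdT+ libraries of mice 174, 175, 177, 178 and 179 and at 7.38, 5.13, 6.39, 13.0 and 20.5 CPM in their tdT- libraries. It was higher in the tdT+ library of 5 of 5 mice, and the populations overlapped through the tdT- library of mouse 179. The log2 fold change was 1.73 ± 0.84 (SE), and it did not pass the test described below (adjusted p = 0.320, edgeR; 0.0909 among well-measured genes). In the LPS mice it was higher in tdT+ cells by 2.79 ± 0.33 (adjusted p = 0.00206, edgeR). This gene was picked after its values were seen, and it reads the locus rather than tdTomato itself.

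The genes of the sort gate were read in every library. Ptprc, which encodes CD45, was at 422 ± 107 CPM (SD, n = 5) in tdT+ cells and at 402 ± 219 CPM in tdT- cells. Itgam, which encodes CD11b, was at 193 ± 31.5 CPM and 150 ± 48.8 CPM in the same order. Mrc1, which encodes CD206, was at 2866 CPM on average in tdT+ and 1452 CPM in tdT- libraries, and it was higher in the tdT+ library of 5 of 5 mice although the populations overlapped. None of these 3 genes passed the test described below, with adjusted p = 0.981, 0.689 and 0.270 in that order (edgeR). The genes of other cell types are given after the results.

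The 2 populations differed first in how many genes their libraries held. Genes with at least 10 counts numbered 10366 ± 430 (SD, n = 5) per tdT+ library and 7828 ± 1157 per tdT- library. Per mouse, tdT+ and tdT- libraries held 10150 and 6671 such genes in mouse 174, 10024 and 9365 in mouse 175, 10564 and 7762 in mouse 177, 11032 and 8566 in mouse 178, and 10058 and 6778 in mouse 179. Every tdT- library lay below every tdT+ library, and mouse 175 had the smallest gap. The difference of 2537 genes had p = 0.00794 by an exact two-sided permutation test over libraries, the smallest value that 5 against 5 allow. By exact sign flips within the 5 mice p was 0.0625, which is again the smallest value possible. Total counts ran from 6017650 to 12208203 in tdT+ and from 6649046 to 9495177 in tdT- libraries (exact permutation p = 0.484), and with each library thinned to the lowest total the difference was 2519 genes (exact permutation p = 0.00794). With a minimum of 1 count in place of 10 the difference was 1259 genes and missed the threshold (exact permutation p = 0.0556). That tdT- libraries were less complex was known from these counts before the tests. These p-values thus describe the gap and are no independent test of it.

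**Figure D1:**
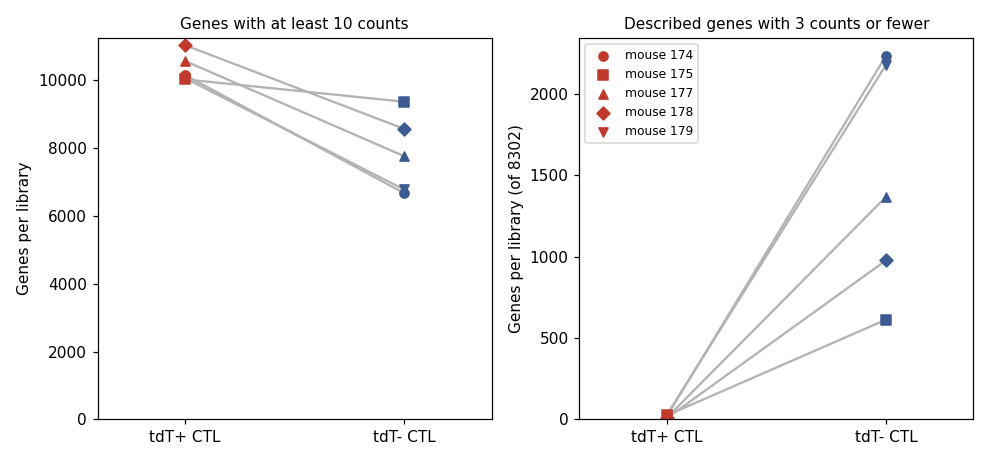
The left panel plots the number of genes with at least 10 counts in each library and the right panel the number of the 8302 described genes with 3 counts or fewer, with a line joining the tdT+ and tdT- library of each mouse. The tdT+ libraries hold 8 to 29 described genes at 3 counts or fewer, and the tdT- libraries 613 (mouse 175) to 2235 (mouse 174).

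Many of the described genes were near zero in tdT- libraries, and few were in tdT+ libraries. Of the 8302 genes, 3838 had at least 10 counts in all 10 libraries, 4375 had them in all 5 tdT+ libraries only, and 89 in all 5 tdT- libraries only. Counts of 3 or fewer in at least 3 of the 5 tdT- libraries were found for 956 of the 8302 genes (11.5%), in all 5 for 73 genes, and counts of 0 in at least 3 for 504 genes. The same count in at least 3 tdT+ libraries was found for 12 genes (0.145%). Since a gene enters the 8302 through the population in which it is high, these numbers describe the choice of genes and the libraries together.

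Which genes were missing differed from one tdT- library to the next. Of the genes with at least 10 counts in any library of a population, 64.7% had them in all 5 tdT+ libraries and 32.5% in all 5 tdT- libraries. The share found in only 1 library was 11.9% for tdT+ and 21.7% for tdT-. In tdT- libraries 27 genes reached at least 1000 counts in 1 library with 3 or fewer in each of the other 4, and no gene did so in tdT+ libraries. Cxcl13, a chemokine that draws B cells, had 3120 counts in the tdT- library of mouse 179, the same library held 1943 counts of Ankrd28, and the mitotic checkpoint kinase gene Bub1b had 1860 counts in that of mouse 178. Among the 3838 genes measured in all libraries, the biological coefficient of variation was 0.329 in tdT+ CTL and 0.720 in tdT- CTL libraries. It is the spread between libraries beyond counting error. With 1 library per mouse and population, it holds differences of mice and of library preparation together. The number of cells behind each library is not given in the sources used here.

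The question of which genes differed between labelled and unlabelled dCAMs was asked with edgeR's quasi-likelihood test over the 14405 genes with at least 10 counts in total. At adjusted p below 0.05 and a log2 fold change beyond 1, 2 genes were higher in tdT+ cells (0.0139% of those tested) and 5 were lower (0.0347%). The 5 lower genes were Cd209a, S100a6, Tmsb10, Tnfsf9 and Lsp1, and the 2 higher ones were Csf1r and Scaf4. An unadjusted p below 0.05 was reached by 2325 genes. With the mouse as a block 3 genes passed, 2 higher (Csf1r and F13a1) and 1 lower (Cd209a). Leaving out both libraries of mouse 174, 177, 178 or 179 left 0 genes past the threshold in edgeR, with 1348 to 1509 genes at an unadjusted p below 0.05, and leaving out mouse 175 left 7, of which 4 were among the 7 above, while Lsp1, Scaf4 and Tnfsf9 no longer passed. A fit on the 20 libraries of the series with 1 shared spread called 712 genes, and the spread in that fit also comes from the LPS libraries, whose coefficient of variation over the same 3838 genes was 0.211 in tdT+ and 0.238 in tdT- cells.

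Cd209a had the largest fitted decrease of the 7. It encodes a C-type lectin related to DC-SIGN and is a known marker of monocyte-derived dendritic cells. In tdT+ libraries of mice 174, 175, 177, 178 and 179 it was at 51.8, 54.1, 26.2, 26.0 and 66.4 CPM. In tdT- libraries of the same mice it was at 2810, 319.6, 1201, 1115 and 784 CPM. Every tdT- library was above every tdT+ library, with the lowest tdT- value in mouse 175 and the highest in mouse 174. The log2 fold change was -4.79 ± 0.55 (SE, adjusted p = 0.0143, edgeR), and the call held with the mouse as a block (-4.61, adjusted p = 0.0436).

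S100a6 and S100a4, which lie close together on chromosome 3, encode small calcium-binding proteins abundant in monocytes, and were both low in tdT+ cells. S100a6 was at 6.01, 23.1, 32.3, 12.6 and 16.2 CPM in the tdT+ libraries and at 549.5, 94.7, 303, 384 and 323 CPM in the tdT- libraries, in the same order of mice. The populations did not overlap, and mouse 175 again had the lowest tdT- value. The log2 fold change was -4.20 ± 0.57 (adjusted p = 0.0297, edgeR), and with the mouse as a block it was -4.19 with adjusted p = 0.230. S100a4 was at 2.44, 3.05, 2.14, 7.21 and 3.44 CPM in tdT+ and at 69.0, 9.92, 52.1, 109 and 48.1 CPM in tdT- libraries. It did not overlap either, but its adjusted p over all tested genes was 0.189 (edgeR).

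Tmsb10, Lsp1 and Tnfsf9 were the other 3 lower genes. Tmsb10, a thymosin that binds actin monomers, was at 51.6, 44.1, 45.5, 32.2 and 38.4 CPM in tdT+ and at 403, 129, 263, 315 and 281 CPM in tdT- libraries (log2 fold change -2.71 ± 0.37, adjusted p = 0.0297, edgeR). Lsp1, an actin-binding protein of leukocytes, was at 162, 92.4, 191, 130.4 and 123 CPM against 876, 372, 576, 912 and 453 CPM (-2.19 ± 0.32, adjusted p = 0.0325, edgeR). Tnfsf9, which encodes the costimulatory ligand 4-1BBL, was at 33.8, 51.1, 64.5, 95.7 and 50.8 CPM against 269, 322, 761, 349 and 1193 CPM (-3.29 ± 0.47, adjusted p = 0.0325, edgeR). In all 3 genes the lowest tdT- library lay above the highest tdT+ library. With the mouse as a block their adjusted p was 0.230, 0.0812 and 0.0936 in that order, so that none of them passed.

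Csf1r, the receptor for the growth factors CSF1 and IL-34 on which macrophages depend, was the higher gene with signal in both populations. It was at 6178, 6443, 5824, 5721 and 6317 CPM in the tdT+ and at 2085, 3858, 3192, 1867 and 2717 CPM in the tdT- libraries. The tdT+ values lay close together and all above the tdT- values. The log2 fold change was 1.15 ± 0.17 (adjusted p = 0.0362, edgeR; 1.20 and 0.0436 with the mouse as a block). Under each of the other scalings tried, Csf1r did not pass in this fit. Scaf4, a gene for a protein that binds the tail of RNA polymerase II, was at 33.7 to 53.5 CPM in the tdT+ libraries (265 to 505 counts) and had 0, 0, 2, 1 and 0 counts in the tdT- libraries. Set against a floor of 3 counts per library it was at least 115-fold higher in tdT+ cells (adjusted p = 0.0475, edgeR; 0.301 with the mouse as a block). In LPS mice Scaf4 was at 41.7 CPM in tdT+ and 36.9 CPM in tdT- libraries on average. It is among the 73 described genes at or under that floor in all 5 tdT- libraries.

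**Figure D2:**
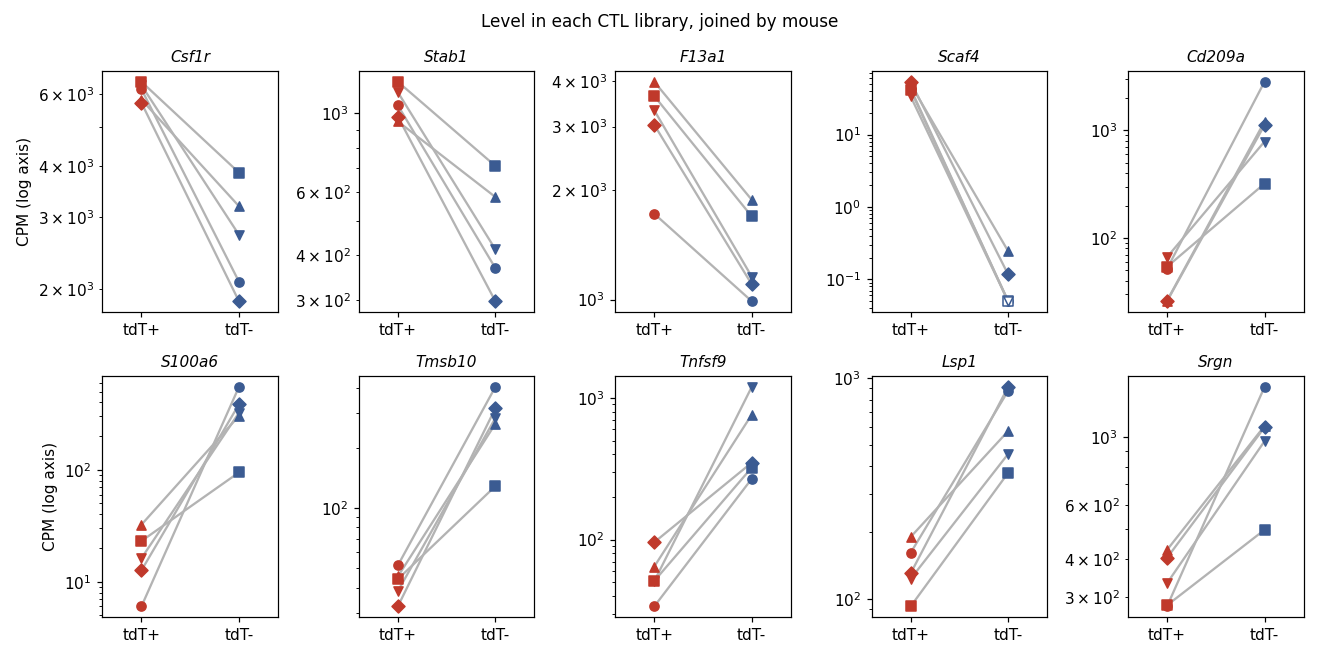
Level of 10 genes in each CTL library in CPM on log axes that differ between panels, with a line joining the tdT+ (red) and tdT- (blue) library of each mouse, marked by symbol as in the plot of detected genes. Open symbols, drawn at 0.05 CPM, stand for 0 counts. Csf1r, Stab1, F13a1 and Scaf4 are higher in the tdT+ library of all 5 mice, and Cd209a, S100a6, Tmsb10, Tnfsf9, Lsp1 and Srgn are lower.

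The genes with at least 10 counts in all 10 libraries, called well measured here, were fitted alone so that no gene near zero in either population entered. These 3838 genes held 11 that were higher in tdT+ cells (0.287%) and 23 that were lower (0.599%) at the same thresholds. All 34 changed in the same direction in 5 of 5 mice, against 240 of the 3838 genes higher (6.25%) and 459 lower (12.0%) in 5 of 5 mice. For 31 of the 34 the populations did not overlap, and F13a1, Lgals3 and Lars2 were the exceptions. Over the 3838 genes, 83 were higher (2.16%) and 186 lower (4.85%) without overlap, and over all 14405 tested genes 397 (2.76%) and 233 (1.62%) were. Both call rules and both counts use the contrast that chose the 34. With the mouse as a block 6 genes passed, namely Csf1r, F13a1, Cd209a, Lsp1, Tmsb10 and Tnfsf9. Without mouse 174, 177, 178 or 179 the number was 4, 4, 6 and 5, and without mouse 175 it was 29. All 34 kept their direction in each of these fits, and their unadjusted p stayed at or below 0.00447. These fits reuse libraries that chose the 34, so both outcomes follow in part from the choice.

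**Figure D3:**
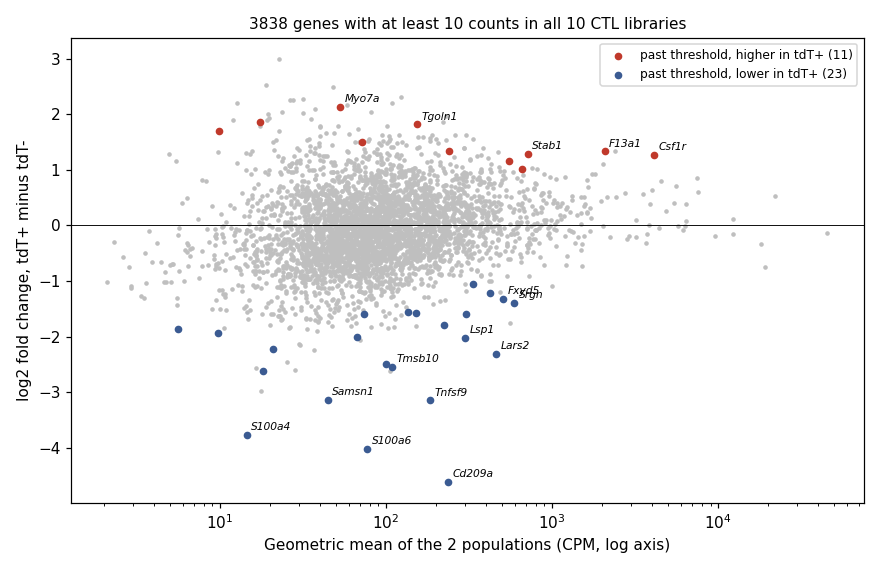
Each point is 1 of the 3838 genes with at least 10 counts in all 10 CTL libraries, at its geometric mean level in CPM (log axis) and its fitted log2 fold change, tdT+ minus tdT-. The 11 genes past the threshold and higher in tdT+ cells (red) lie between 1.02 and 2.14, and the 23 lower genes (blue) reach -4.61 for Cd209a.

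The higher genes included several of mature tissue macrophages. In the fit on well-measured genes, used in this and the next paragraph, Csf1r rose by 1.27 ± 0.22 on the log2 scale (adjusted p = 0.0281, edgeR). F13a1, the coagulation factor XIII A chain and a marker of border macrophages, was at 1725, 3645, 3990, 3035 and 3329 CPM in tdT+ and at 989.7, 1696, 1885, 1102 and 1157 CPM in tdT- libraries (1.34 ± 0.27, adjusted p = 0.0392, edgeR). Stab1, a scavenger receptor that clears altered lipoproteins and hyaluronan, was at 1052, 1225, 949, 978 and 1145 CPM against 368, 712, 583, 297 and 416 CPM (1.29 ± 0.27, adjusted p = 0.0426, edgeR). Both genes were higher in the tdT+ library of every mouse, and only F13a1 overlapped, through the tdT+ library of mouse 174. Pla2g7, which encodes platelet-activating factor acetylhydrolase, rose by 1.17 (784 against 383 CPM on average). Man2b1, the lysosomal alpha-mannosidase, rose by 1.02 (894 against 488 CPM). Tgoln1, a protein of the trans-Golgi network, rose by 1.82 (274 against 86.4 CPM). Myo7a, an unconventional myosin, rose by 2.14 (105 against 27.1 CPM), and Kif3a, a kinesin motor subunit, by 1.87 (31.9 against 9.61 CPM). The remaining 3 were Bltp2, Inpp4a and Tmcc3, at 1.34, 1.71 and 1.499. Next to these stood lysosomal genes that reached the adjusted p but not the fold. Ctsb, the cathepsin B gene, was at 9550 against 5801 CPM on average (0.85, adjusted p = 0.0474, edgeR), and Grn, the progranulin gene, at 2383 against 1383 CPM (0.92, adjusted p = 0.0392, edgeR). Serinc3, a membrane protein of the serine incorporator family, was at 6740 against 4581 CPM (0.70, adjusted p = 0.0392, edgeR). Ctsc (cathepsin C, 0.57) and the Fc receptor-like gene Fcrl2 (0.92) did not overlap either, with adjusted p = 0.0618 and 0.0617 (edgeR).

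The 23 lower genes fell into several kinds. Beside the 5 above, Srgn, the proteoglycan of secretory granules, fell by 1.39 on the log2 scale, with 279.8, 282, 428, 403 and 333 CPM in tdT+ and 1454, 497, 1085, 1074 and 968 CPM in tdT- libraries (adjusted p = 0.0281, edgeR). Fxyd5, a small regulator of the sodium pump, was at 325, 335, 326, 292 and 242 CPM against 1227, 448, 882, 899.9 and 795 CPM (-1.32, adjusted p = 0.0281, edgeR). Both genes were lower in the tdT+ library of every mouse with no overlap, and mouse 175 had the smallest difference in each. Crip1 (-1.60), Anxa2 (-1.58) and the galectin gene Lgals3 (-1.79) are genes of the cytoskeleton, membrane and secretion that blood monocytes express. Stmn1 (-2.62), which destabilises microtubules, and H2az1 (-1.56), a histone variant, are used as proliferation genes and are expressed in other cells too. The survival gene Bcl2a1d fell by 2.23, and reads of this gene cannot be told with certainty from its near-identical copies. Olfm1 (-2.50), the adaptor Samsn1 (-3.14), the coactivator Sub1 (-1.21), the proteasome component Sem1 (-1.05) and the mitochondrial synthetase gene Lars2 (-2.31) were further genes. Rps12 (-2.01) and Rpl17 (-1.60) encode ribosomal proteins, and Gm5781 (-1.86) and Rpl9-ps6 (-1.93) are a predicted gene and a pseudogene, whose reads may belong to a parent gene. Tmsb4x, the most abundant thymosin, was at 13890 CPM on average in tdT+ and 26100 CPM in tdT- cells (-0.75, adjusted p = 0.0281, edgeR), short of the fold threshold.

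The start sites of Cd209a, S100a4 and S100a6 are shown because these 3 genes had the largest decreases among the well-measured genes and S100a4 and S100a6 lie close together. Each sequence is the 250 bases before the RefSeq start in GRCm38.p6, written 5′ to 3′ on the strand of the gene, with TATAAA on either strand in capitals. The windows lie at chr8:3748985-3749234 on the minus strand for Cd209a, and on the plus strand at chr3:90603520-90603769 for S100a4 and chr3:90612644-90612893 for S100a6.
Cd209a: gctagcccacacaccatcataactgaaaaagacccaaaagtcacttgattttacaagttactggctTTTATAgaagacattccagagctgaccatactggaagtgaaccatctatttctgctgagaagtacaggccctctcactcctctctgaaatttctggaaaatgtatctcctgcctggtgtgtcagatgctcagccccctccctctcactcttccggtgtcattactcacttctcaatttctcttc
S100a4: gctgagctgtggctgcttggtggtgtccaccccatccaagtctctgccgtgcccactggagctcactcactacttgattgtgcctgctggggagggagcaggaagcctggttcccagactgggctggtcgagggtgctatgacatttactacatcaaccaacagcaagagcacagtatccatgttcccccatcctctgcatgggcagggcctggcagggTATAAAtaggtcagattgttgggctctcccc
S100a6: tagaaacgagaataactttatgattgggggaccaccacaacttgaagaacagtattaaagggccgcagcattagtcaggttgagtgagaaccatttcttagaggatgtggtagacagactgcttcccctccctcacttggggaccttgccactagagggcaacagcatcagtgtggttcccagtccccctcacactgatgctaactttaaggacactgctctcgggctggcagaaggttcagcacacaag
The S100a4 window holds TATAAA with its first base 31 bases before the start, the Cd209a window holds it on the opposite strand 184 bases before the start, and the S100a6 window does not hold these letters. Windows were available for 3061 of the 3838 well-measured genes, and 6.96% of them held TATAAA on either strand. Among genes lower in tdT+ cells without overlap the share was 12.1% (17 of 140 windows), and among those higher without overlap it was 4.92% (3 of 61). The AP-1 motif TGAGTCA was held by 2.81% of the 3061 windows, by 8.57% of those of lower and by 3.28% of those of higher genes. The CCAAT box CCAAT was held by 35.7%, 29.3% and 36.1% in the same order, the GC box GGGCGG by 61.5%, 55.0% and 67.2%, and the ETS core GGAAGT by 25.9%, 33.6% and 16.4%. None of these motifs contains another, and the shares are descriptions of these windows only.

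Gene groups were described by counts and medians of the fitted log2 fold change over all 10 CTL libraries, beside a median of -0.23 for the 3838 well-measured genes. Of these, 1375 lay above 0 and 2463 below. Another scaling of the libraries moved that median to between -0.44 (TMMwsp) and -0.12 (upper quartile), and each median below is best read against it. The counts of genes past the threshold come from the fit on well-measured genes. Over these 3838 genes, 6.25% were higher and 12.0% lower in 5 of 5 mice. Past the threshold were 0.287% higher and 0.599% lower. The counts in each group are to be read beside these shares.

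Genes of macrophage identity and of resident border macrophages sat above that median. Of 9 well-measured genes of macrophage identity and the sort gate, 8 were above 0 (median 0.38) and 1, Csf1r, passed. Of 14 resident border macrophage genes 13 were above 0 (median 0.84), 8 were higher in 5 of 5 mice and 2, F13a1 and Stab1, passed. Mrc1, the mannose receptor that binds glycoproteins for uptake, was at 1662, 2695, 3235, 3283 and 3454 CPM in tdT+ and at 828, 2294, 1626, 1671 and 838 CPM in tdT- libraries (0.98 ± 0.29, adjusted p = 0.270, edgeR). Of 15 genes of scavenging and complement C1q 14 were above 0 (median 0.72) and 1, Stab1, passed. Cd163, the haemoglobin scavenger receptor, was at 243, 501, 435, 343 and 691 CPM against 79.8, 269, 182, 88.2 and 158 CPM, higher in 5 of 5 mice with overlap (1.51 ± 0.39, adjusted p = 0.212, edgeR). The complement genes C1qb and C1qc were at 6943 and 5890 CPM in tdT+ and at 5877 and 4925 CPM in tdT- cells on average (0.24 and 0.26, adjusted p = 0.564 and 0.401, edgeR). Of 17 genes on the lysosomal list 14 were above 0 (median 0.30), 7 were higher in 5 of 5 mice and none passed. Man2b1, a lysosomal gene that passed, is not on that list. Of 10 enzymes of lipid mediators 6 were above 0 (median 0.13), with Pla2g7 past the threshold, and Tbxas1, thromboxane synthase, at 304 against 139 CPM without overlap (1.13 ± 0.32, adjusted p = 0.263, edgeR). Under the 4 other scalings the medians of the first 4 groups stayed above 0, and the lowest were 0.17, 0.64, 0.53 and 0.10 in the order given, all under TMMwsp.

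Genes of monocytes, of S100 proteins and annexins and of the actin skeleton sat below it. All 4 well-measured monocyte-associated genes were below 0 (median -3.08) and lower in 5 of 5 mice, and 3 passed, namely S100a6, S100a4 and Lsp1. The fourth was Ccr2, the gene whose promoter drives the Cre. Ccr2 was at 250.1, 164, 477, 277 and 246 CPM in tdT+ and at 633, 425, 530.3, 617 and 911 CPM in tdT- libraries, lower in 5 of 5 mice with overlap (-1.14 ± 0.30, adjusted p = 0.218, edgeR). Plac8 and Napsa, a monocyte gene and an aspartic protease gene of myeloid cells, had at least 10 counts in all 5 tdT- libraries only. Plac8 was at 0, 0, 0, 1.27 and 0 CPM in tdT+ and at 382, 47.2, 32.1, 19.02 and 21.7 CPM in tdT- libraries (adjusted p = 0.158, edgeR). Napsa was at 0, 0, 2.38, 4.98 and 0 CPM against 226, 26.3, 62.1, 108 and 142 CPM (adjusted p = 0.207, edgeR). Both were chosen for having these counts in every tdT- library and near-zero counts in most tdT+ libraries, so the gap between the populations follows in part from the choice. Of 11 S100 and annexin genes 10 were below 0 (median -1.76) and 3 passed (S100a4, S100a6 and Anxa2). Of 20 genes of actin binding and thymosins 17 were below 0 (median -0.51), 12 were lower in 5 of 5 mice, and Tmsb10, Lsp1 and Crip1 passed. Actb itself, the beta-actin gene, was at 3102 CPM in tdT+ and 4321 CPM in tdT- cells on average (-0.48 ± 0.20, adjusted p = 0.309, edgeR). The medians of these 3 groups were below 0 under each of the 4 other scalings too.

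**Figure D4:**
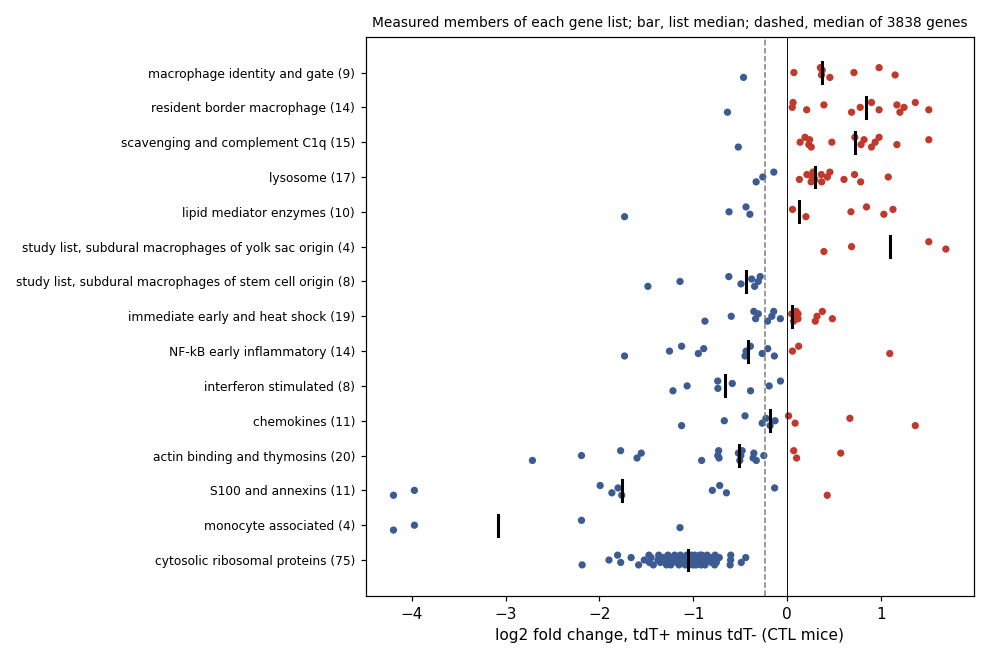
Each point is the fitted log2 fold change, tdT+ minus tdT-, of 1 gene with at least 10 counts in all 10 CTL libraries, by gene list with the number of genes in brackets. Black bars are list medians and the dashed line is the median of all 3838 genes, -0.23. The 75 ribosomal protein genes all lie below 0, and 13 of the 14 resident border macrophage genes lie above 0.

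The study names genes by which it tells subdural macrophages of yolk sac origin from those of haematopoietic stem cell origin, and both sets were read here in dural cells. In the study's bulk comparison the Cre was driven by Mrc1, and tdT+ cells were those of yolk sac origin. Here tdT instead marks cells with active Ccr2 during the tamoxifen days. The study describes dCAMs as mostly derived from haematopoietic stem cells. The sets therefore assign no origin to either dural population, and origin was not tested. All 8 genes of the stem cell set were below 0 in tdT+ relative to tdT- cells (median -0.43), 6 were lower in 5 of 5 mice, and 1, Fxyd5, passed. Their summed level was 62000 to 104500 CPM in tdT+ and 76080 to 131700 CPM in tdT- libraries. Most of it came from genes of MHC class II, which presents antigen to helper T cells. Cd74, the invariant chain, was at 41220 CPM on average in tdT+ and 50270 CPM in tdT- cells (-0.29 ± 0.16, adjusted p = 0.405, edgeR). H2-Ab1, a class II beta chain, was at 15310 against 21520 CPM (-0.49 ± 0.16, adjusted p = 0.309, edgeR). The value of Cd74 lies close to the median of -0.23 for all well-measured genes, and both genes changed sign, to 0.26 and 0.06, when centred on genes of like exon length as described below. All 4 genes of the yolk sac set were above 0 (median 1.10), 3 were higher in 5 of 5 mice, and none passed. C4b, the complement component C4, was at 390.2, 318, 479, 458 and 344 CPM in tdT+ and at 27.7, 102, 182, 205 and 99.0 CPM in tdT- libraries, with no overlap (1.69 ± 0.44, adjusted p = 0.212, edgeR).

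Cytosolic ribosomal protein genes were lower in tdT+ cells as a group. All 75 well-measured genes were below 0 (median -1.05), 55 were lower in 5 of 5 mice, 31 had no overlap, and 2, Rps12 and Rpl17, passed. Of all 3838 well-measured genes, 12.0% were lower in 5 of 5 mice, 4.85% were lower without overlap and 0.599% were lower past the threshold. The summed level of the genes of this list was 4948 to 6491 CPM in tdT+ and 6714 to 16710 CPM in tdT- libraries, so the lowest tdT- library lay above every tdT+ library. Rpl4 was at 303, 285, 264, 302 and 280.4 CPM in tdT+ and at 1134, 243, 764, 577 and 516 CPM in tdT- libraries (-1.17 ± 0.33, adjusted p = 0.258, edgeR). Its tdT- value in mouse 175 was under its tdT+ values, and in the other 4 mice the tdT- library was higher. Rps9 was at 256 against 538 CPM on average without overlap (-1.07 ± 0.25, adjusted p = 0.190, edgeR). Leaving out each mouse in turn gave a list median between -1.20 and -0.96, with all 75 genes below 0 each time. Ribosomal RNA reads differed as well. Rn18s, the 18S ribosomal RNA gene, had 2637, 2404, 2005, 2494 and 3082 counts in tdT+ and 14084, 3262, 5828, 12517 and 5944 counts in tdT- libraries. Rn18s was not among the genes chosen by rule and was picked after its values were seen.

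The difference between the populations moved with the length of the transcripts. Exon length in the GENCODE M21 annotation was known for 96.8% of the 3838 well-measured genes. Across them the fitted log2 fold change had a Spearman correlation of 0.379 with exon length (3716 genes that share 10 libraries). In the shortest of 10 equal groups by exon length (88 to 1099 bases, 372 genes) the median log2 fold change was -0.78. In this group 64 genes were lower without overlap and none was higher without overlap. In the longest group (6669 to 27143 bases, 371 genes) the median was 0.02, with 4 genes lower and 16 higher without overlap. Over all 3838 well-measured genes the shares without overlap were 4.85% lower and 2.16% higher. The per-mouse correlations were 0.0855 and 0.139 in mice 174 and 175, and 0.412, 0.376 and 0.272 in mice 177, 178 and 179. Genes lower without overlap had a median exon length of 1372 bases, genes higher without overlap 4276 bases, and all well-measured genes 2835 bases. The ribosomal, thymosin and S100 genes are short, and the part of exon length in their difference was not tested. Centred on genes of like length, the log2 fold change was -4.24 for Cd209a, -3.41 for S100a6, -2.74 for Tnfsf9, -2.16 for Tmsb10, -2.004 for Lsp1 and 1.08 for Csf1r. It was -0.36 for Tmsb4x.

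**Figure D5:**
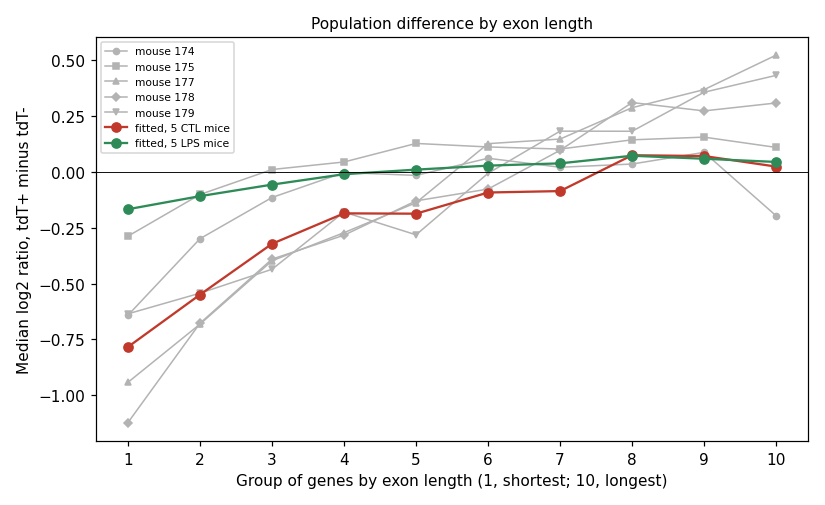
Median log2 ratio, tdT+ minus tdT-, over 10 equal groups of the well-measured genes ordered by exon length, for each CTL mouse (grey), for the fit over the 5 CTL mice (red) and for the fit over the 5 LPS mice (green). The red line runs from -0.78 in the shortest group to 0.02 in the longest, and the green line from -0.17 to 0.04.

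The lists of inflammation genes read here gave no call other than Tnfsf9. Of 14 early NF-kB target genes 11 were below 0 (median -0.41) and none passed. Il1b, the gene of the cytokine interleukin-1 beta, was at 470.4, 528, 798, 1001 and 443 CPM in tdT+ and at 1516, 916, 1162, 2458 and 1672 CPM in tdT- libraries, lower in 5 of 5 mice (-1.25 ± 0.30, adjusted p = 0.190, edgeR). Nfkbia, the feedback inhibitor of NF-kB, was at 1108 against 2051 CPM on average (-0.89 ± 0.24, adjusted p = 0.237, edgeR), and the activation marker Cd83 at 2459 against 3223 CPM (-0.39 ± 0.28, adjusted p = 0.596, edgeR). Of 19 immediate early and heat shock genes 10 were above 0 (median 0.05) and none passed. Among them Ier2 was at 897 against 1646 CPM without overlap (-0.88 ± 0.23, adjusted p = 0.218, edgeR), and Klf6 at 1093 against 842 CPM (0.38 ± 0.17, adjusted p = 0.309, edgeR). All 8 interferon stimulated genes were below 0 (median -0.66), 1 of them in 5 of 5 mice, and none passed. Of 11 chemokine genes 7 were below 0 (median -0.18) and none passed. Of 7 TNF family and costimulatory genes 4 were above 0 (median 0.33), Tnfsf9 was the 1 that passed, and Cd86, a ligand of CD28, was at 391 against 221 CPM (0.82 ± 0.30, adjusted p = 0.309, edgeR).

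Markers of other cell types that a dural sort could hold were summed per library. Stromal and endothelial genes added up to 156 to 385 CPM in tdT+ libraries and to 12.9 to 4743 CPM in tdT- libraries. Dcn, a fibroblast proteoglycan, was at 51.8 to 151 CPM in tdT+ libraries and at 0.154, 166, 38.2, 1.64 and 1786 CPM in tdT- libraries. The tdT- library of mouse 179 was thus far above the other 4. Haemoglobin genes and other erythroid genes reached 796 CPM in tdT- and 26.6 CPM in tdT+ libraries, with Hba-a1 at 358 CPM in the tdT- library of mouse 178. Neutrophil genes summed to 85.4 to 199.6 CPM and 69.0 to 183 CPM, and Ly6g was not among the tested genes. B cell genes summed to 629 to 1342 CPM and 694 to 1144 CPM, led by Ighm, and Pax5 was not among the tested genes. T and NK cell genes summed to 52.1 to 134 CPM and 0.123 to 91.2 CPM. Sall1, a transcription factor gene of microglia, was at 1.998 CPM or less in every library. P2ry12, a purinergic receptor gene of microglia and some border macrophages, was well measured in both populations, at 101.5, 161, 342, 285 and 221 CPM in tdT+ and at 122, 173, 279, 58.6 and 2.23 CPM in tdT- libraries, with overlap (0.81 ± 0.78, adjusted p = 0.745, edgeR). Siglech, a lectin of plasmacytoid dendritic cells and microglia, was at 238, 302, 284, 173 and 331 CPM in tdT+ and at 16.0, 151, 58.3, 54.8 and 3.16 CPM in tdT- libraries (2.23 ± 0.74, adjusted p = 0.309, edgeR). Dendritic cell genes summed to 238 to 439.9 CPM in tdT+ and 927 to 3552 CPM in tdT- libraries, led over all libraries by Cd209a. Xcr1 was not among the tested genes, and 3 of 12 markers were well measured. Of these 3, 2 were below 0 and 1, Siglech, was above 0. In every tdT+ library Siglech was above Cd209a, so the list did not move as 1 group. Monocyte-associated genes summed to 336 to 718 CPM and 1128 to 3055 CPM, led by Ccr2. The part of these cell types in the differences above was not tested. In bulk libraries, more cells of a type and more RNA of its genes per cell cannot be told apart.

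Genes that were well measured in one population and near zero in most libraries of the other could be missing from different tdT- libraries, since 73 of the 956 genes above were near zero in all 5. The 4 with the highest level in tdT+ cells were Wdr41, Arb2a, Tsc2 and Maoa. Wdr41, part of a complex with the product of C9orf72, was at 104, 104, 63.8, 94.4 and 130.0 CPM in tdT+ and at 0.461, 61.9, 0, 43.4 and 0 CPM in tdT- libraries. Tsc2, an inhibitor of mTORC1, was at 68.4, 149, 48.6, 50.7 and 49.1 CPM against 0, 34.5, 0.123, 76.9 and 0 CPM. Maoa, a monoamine oxidase, was at 39.9, 61.9, 97.0, 97.0 and 61.7 CPM against 0.307, 107, 59.1, 0.235 and 0 CPM. For Tsc2 and Maoa 1 tdT- library was as high as most tdT+ libraries while 3 were near zero. Arb2a showed the same, with 36.5 and 118 CPM in the tdT- libraries of mice 175 and 178 and at most 0.154 CPM in the other 3. None of the 4 passed, with adjusted p from 0.541 to 0.846 (edgeR). In the other direction, the 4 genes by the same rule were Napsa, Plac8, the Src family kinase gene Fgr and the kinetochore gene Spc25. Fgr was at 0.162, 11.4, 0, 2.01 and 0 CPM in tdT+ and at 165, 9.03, 1.48, 42.6 and 77.1 CPM in tdT- libraries, and Spc25 at 0 to 6.78 CPM against 2.95 to 128 CPM.

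The same contrast was available in the 5 LPS mice, which share no library with the CTL mice. Fitted alone, the LPS libraries gave 2 genes higher and 37 lower in tdT+ cells of 15163 tested. Of the 34 well-measured genes past the threshold in CTL mice, 31 had the same direction in LPS mice, 8 of 11 higher and 23 of 23 lower ones, while 2009 of the 3838 genes lay below 0 there. In LPS mice 6 of the 34 passed, all lower, namely S100a6, Lsp1, Tmsb10, Crip1, H2az1 and Anxa2. Lsp1 was at 14.8 CPM in tdT+ and 134 CPM in tdT- cells after LPS (-3.17, adjusted p = 0.000465, edgeR), and S100a6 at 7.78 and 51.9 CPM (-2.74, adjusted p = 0.00206, edgeR). Cd209a was at 17.2 against 26.4 CPM (-0.62, adjusted p = 0.892, edgeR), Tnfsf9 at 94.9 against 109 CPM (-0.20, adjusted p = 0.796, edgeR) and Csf1r at 1395 against 1338 CPM (0.06, adjusted p = 0.960, edgeR). Ccr2 passed in LPS mice (-2.18, adjusted p = 0.00206, edgeR). The correlation of the difference with exon length was 0.317 there.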

How the data were processed

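Counts were made by the authors and are used as deposited: per the labels, FACS-sorted cells were prepared with a SMART-Seq mRNA kit with PCR and without molecular identifiers, demultiplexed with bcl2fastq 2.20, aligned with STAR 2.7.11a and counted with featureCounts 2.0.6. The genome build is named in more than one way in the sources used here, so GRCm38 coordinates only locate genes. The 10 CTL libraries were fitted with edgeR 4.0.16 (quasi-likelihood F test, TMM scaling, 1 mean per population, R 4.3.3) over genes with at least 10 counts in total, and levels are TMM-scaled CPM. SE is the log2 fold change divided by the root of F. A second fit used genes with at least 10 counts in all 10 libraries. Adjusted p is Benjamini-Hochberg over all genes of a fit. The scripts were tested on simulated data in which a gene had the same spread in both populations. In the CTL libraries the coefficient of variation was 0.329 in tdT+ and 0.720 in tdT- cells, and such unequal spread was not simulated. The floor of 3 counts covers counting error only, while SD and SE also hold the spread between libraries.

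Mouse numbers pair the libraries, since both came from 1 animal. Deviations of same-numbered libraries had correlations of -0.00824 to 0.0458 over 5148 genes. Blocked values are given for the genes past the threshold in the first fit. For the second fit only the genes that passed with the block are named. Genes named were those past the threshold, up to 10 well-measured genes per direction without overlap and with 1 sign in 5 mice, the 2 with the smallest p and the 2 with the highest level of each of 26 gene lists, genes well measured in one population and near zero in the other, single-library genes and the gate genes with Csf1r and Ccr2. Those printed are a selection of them, and other genes past the threshold in the second fit are named too. The members and lists were chosen with earlier results of these data known. Alternatives were a mouse block, other scalings and filters, a joint fit of 20 libraries, DESeq2, limma-voom, thinning and leaving out each mouse.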

Additional observations from a re-analysis of the deposited data

Results flagged for a closer look

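For 4 of the 7 genes past the threshold in CTL mice, the difference between tdT+ and tdT- cells itself differed between CTL and LPS mice, by an interaction term in an edgeR fit over the 20 libraries with adjusted p over all 16632 genes tested. The interaction had adjusted p below 0.05 for 210 of these genes (1.26%). The 7 were chosen for a large difference in CTL mice, so a larger difference there than in LPS mice is partly built into the choice. The log2 fold change in CTL minus that in LPS mice was -4.17 ± 1.02 (SE, adjusted p = 0.0463) for Cd209a, lower in tdT+ cells of 5 of 5 CTL mice. It was -3.09 ± 0.52 (adjusted p = 0.00341) for Tnfsf9, lower in 5 of 5, and 1.09 ± 0.24 (adjusted p = 0.0234) for Csf1r, higher in 5 of 5. For Scaf4 it was 8.83 ± 0.94 (adjusted p = 5.28e-05), a fitted value that depends on the prior count, since the 5 tdT- CTL libraries held at most 2 counts each. The LPS libraries also spread less than the CTL libraries, and that fit uses 1 spread for both. For Lsp1, S100a6 and Tmsb10 the interaction had adjusted p = 0.306, 0.308 and 0.0880.

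Libraries that stood apart from the other 4 of their group were sought with Dixon's criterion in 184 groups of 5 values. These were the CPM of 79 genes given in the text, the summed CPM of 9 gene lists and 4 measures of the libraries, in each population. The criterion marked 25 groups, 15 in tdT+ and 10 in tdT- libraries. Chance alone marks about 1 in 20 groups of normally distributed, separate values. CPM with many zeros are not so distributed, and some groups share values, such as Dcn and the stromal sum. The rate of 1 in 20 is therefore only a rough guide here. Genes picked because 1 library is high or most are near zero had to be marked more often.
In tdT- libraries, that of mouse 179 stood apart for Dcn (1786 CPM against 0.154 to 166), for the summed stromal and endothelial genes (4743 against 12.9 to 1129 CPM), for Cxcl13 (410.2 CPM) and for Ankrd28 (255.5 CPM). That of mouse 174 did so for Plac8 (382 against 19.02 to 47.2 CPM), for the summed dendritic cell genes (3552 against 927 to 1424 CPM) and for Sall1 (1.998 CPM). That of mouse 178 was high for Bub1b (218.4 CPM) and Myo7a (64.3 against 13.3 to 20.4 CPM), and that of mouse 175 was low for Sub1 (305 against 716.5 to 838 CPM).
In tdT+ libraries, that of mouse 174 was high for Rn18s (428 against 238 to 264 CPM), Rps9 (313 against 229 to 252 CPM), C1qc (7417 against 5204 to 5792 CPM), Sall1 (0.162 CPM) and the summed B cell genes (1342 against 629 to 774 CPM). That of mouse 178 was high for S100a4 (7.21 CPM), Plac8 (1.27 CPM), Spc25 (6.78 CPM), Hba-a1 (9.75 CPM) and the summed erythroid genes (26.6 against 2.27 to 4.39 CPM). That of mouse 179 was high for Dcn (151.3 against 51.8 to 77.8 CPM) and the summed neutrophil genes (199.6 against 85.4 to 110.7 CPM). That of mouse 175 was high for Tsc2 (149 against 48.6 to 68.4 CPM) and Fgr (11.4 CPM), and that of mouse 177 for Lgals3 (145.8 against 96.3 to 109 CPM).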

How the results depend on the processing

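Calls (higher and lower in tdT+) numbered 7 as reported among 14405 genes, 3 (2 and 1) with the mouse as a block, 712 (500 and 212) in the joint fit, which tested 16632 genes, 690 (486 and 204) in DESeq2, 2143 (1977 and 166) in DESeq2 with the block, 227 in limma-voom with quality weights and 241 with the block added. Limma-voom with 1 weight per population, chosen after seeing the data, gave 270. Restricting the test to genes with 10 counts in all 5 libraries of at least one population gave 127 (95 and 32), and in all 10 libraries 34. Leaving out 1 mouse gave 0 to 7 among 13588 to 13996 genes. The split was 1 and 5 under RLE, upper-quartile and library-total scaling, where Csf1r was lost. It was 0 and 8 under TMMwsp, where Csf1r and Scaf4 were lost. All 7 genes were among the calls of the joint, DESeq2 and limma-voom fits. Among the 3838 well-measured genes the 34 calls became 6 with the block and 4 to 29 without 1 mouse, all added after seeing the data. The cause of these differences was not tested. The difference in detected genes was 1259 at a minimum of 1 count and 2301.8 to 3006.8 without 1 mouse, and had exact p = 0.0625 within mice (2537.2 genes, replicate block). Genes near zero in tdT- libraries numbered 956 by the rule used, 73 at 3 counts or fewer in all 5 and 504 at 0 in at least 3. Signs turned for Ptprc (-0.12 under TMMwsp, -0.17 without mouse 179 and up to 0.38 without another mouse) and, centred on genes of like exon length, for Cd74 (0.26) and H2-Ab1 (0.058).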
